A study of Mus musculus with 10 samples.

Results

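The genes described here are 35 effector genes of T cells, most of them known as inducible through the transcription factor NFAT, out of 18193 genes measured on the arrays. They were named as a list of 10 cytokines, 10 ligands and receptors of the TNF family, 4 surface genes of activated cells, 4 chemokines and 7 genes of cytotoxic granules and NK receptors. Each gene was represented by 1 probe set, the one annotated to that symbol alone with the highest mean over the 10 arrays. The rule names the genes and uses no measured difference, but the list was chosen with earlier results of these data known.

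The study profiled a mouse leukemia of T cells (T-ALL) induced by ICN1, the activated form of NOTCH1. All the leukemias carried a ROSCreERT2 transgene, a Cre recombinase that tamoxifen switches on, and 2 floxed CnB1 alleles. CnB1, now named Ppp3r1, encodes the regulatory subunit of calcineurin. Leukemic secondary recipient mice received tamoxifen to delete CnB1 (TAM, 5 arrays) or corn oil, its carrier, which leaves CnB1 in place (OIL, 5 arrays). Leukemic cells exceeded 50% of the marrow and were sorted on GFP or a similar marker. The labels give the animals' age for neither group and do not state whether any mouse gave more than 1 array, so p-values measure the spread between these samples only. No array received tamoxifen with CnB1 intact, so the drug and the deletion cannot be told apart. Each group held arrays labelled 204, 206, F3, F3.1 and F3.2, once the last number in the names of F3.1 and F3.2 was dropped.

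Calcineurin is a phosphatase that calcium activates after T cell receptor engagement. It dephosphorylates NFAT proteins, which then enter the nucleus and bind a GGAAA core, often beside AP-1, in the promoters of cytokine and TNF family genes. Resting and immature T cells carry little RNA of most of these effector genes, while activated helper and cytotoxic cells carry much of it.

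RefSeq promoter sequences (GRCm38.p6, 250 bases before the start of the gene) were matched for 26 of the 35 genes, as 28 windows. The 9 genes with no entry were Il10, Cd40lg, Cd69, Icos, Cd83, Ccl4, Ccl5, Klrd1 and Ctsw, and the shares below leave them out. The letters of the NFAT core (GGAAA, or TTTCC on the other strand) were present in 23 of the 28 windows (82.1%), against 18254 of 32851 windows (55.6%) over all genes. The AP-1 motif TGANTCA, searched on both strands, was present in 4 windows (14.3%), against 2217 (6.75%) over all genes. No NFAT core in the members' windows overlapped an AP-1 motif. Such a match is a description of the letters and not a binding site. The promoters of 4 genes are shown in the gene's own direction with NFAT cores in capitals, because they span the range of results: Il2 and Tnf, textbook calcineurin targets below the floor of expression in both groups, Gzma, above it on every array, and Cst7, lower in TAM. They lie at chr3:37125955-37126204 (minus strand), chr17:35202008-35202257 (minus), chr13:113100982-113101231 (minus) and chr2:150570165-150570414 (plus).
Il2: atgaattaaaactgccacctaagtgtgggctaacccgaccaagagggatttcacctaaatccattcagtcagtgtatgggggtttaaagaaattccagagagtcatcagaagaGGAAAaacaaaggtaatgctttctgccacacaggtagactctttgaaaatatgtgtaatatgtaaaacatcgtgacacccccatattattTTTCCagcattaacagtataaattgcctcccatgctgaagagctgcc
Tnf: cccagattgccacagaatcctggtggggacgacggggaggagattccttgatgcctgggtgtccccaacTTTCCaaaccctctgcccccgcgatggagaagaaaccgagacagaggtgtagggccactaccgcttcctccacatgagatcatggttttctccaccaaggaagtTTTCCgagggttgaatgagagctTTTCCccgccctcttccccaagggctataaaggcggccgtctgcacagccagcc
Gzma: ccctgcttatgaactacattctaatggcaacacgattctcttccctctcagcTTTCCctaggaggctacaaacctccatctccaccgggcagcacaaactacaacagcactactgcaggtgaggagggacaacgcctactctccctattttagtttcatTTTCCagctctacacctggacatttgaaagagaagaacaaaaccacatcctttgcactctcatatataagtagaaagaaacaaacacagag
Cst7: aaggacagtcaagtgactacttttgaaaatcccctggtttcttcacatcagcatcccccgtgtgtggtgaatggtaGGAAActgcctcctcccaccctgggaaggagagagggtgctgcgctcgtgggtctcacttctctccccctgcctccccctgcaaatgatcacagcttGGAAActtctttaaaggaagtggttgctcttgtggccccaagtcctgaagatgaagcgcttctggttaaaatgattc
Each of the windows of Il2, Gzma and Cst7 held 2 cores and that of Tnf held 3. The 5 windows with no core belonged to Il17a, Il12rb2, Gzmb, Prf1 and 1 of the 2 starts of Il4, all below the floor of expression. The 6 members above the floor in either group that had a window (Ltb, Tnfsf11, Tnfrsf4, Tnfrsf18, Gzma and Cst7) each held at least 1 core. Most windows of members below the floor held one too, so a core did not separate the 2 sets.

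The first question was which of the 35 genes were expressed at all. The deposited values are log2 expression values from RMA, which gives no call of presence or absence. A floor of 6.28 log2 units was therefore read from 34 measured genes of other tissues, such as albumin, myosin and crystallin genes, as the 90th percentile of their means. Probe sets differ in how well they bind, so a value above or below this floor orders no gene against another. Group means exceeded the floor for 7 of the 35 genes in TAM arrays and for 8 in OIL arrays, while 46.2% of all 18193 genes had a mean over all arrays above it. These were Il10, Ltb, Tnfrsf4, Tnfrsf18, Tnfsf11, Icos and Gzma in both groups and Cst7 in OIL alone. Tnfrsf18 averaged 7.89 over the arrays labelled 204 and 7.76 over those labelled 206. Over the arrays with F3 labels it averaged 6.26, below the floor. Just above the floor were Tnfrsf4, at 6.36 in TAM and 6.53 in OIL, and Cst7 in OIL, where it averaged 6.39, so its count rests on a small margin. Just below it were Cd69, at 6.26 in TAM and 5.50 in OIL, and Il12rb2, at 5.97 in TAM and 6.16 in OIL. The floor decided these counts. It gave 20 members when lowered to the limit used to leave out dim genes (4.59 log2 units). Raised to the brightest of the other-tissue genes (10.13 log2 units, the myelin gene Mbp), it gave Gzma alone. Mbp lay far above the median of the other-tissue genes (4.56), and whether it is silent in these cells was not tested.

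**Figure D1:**
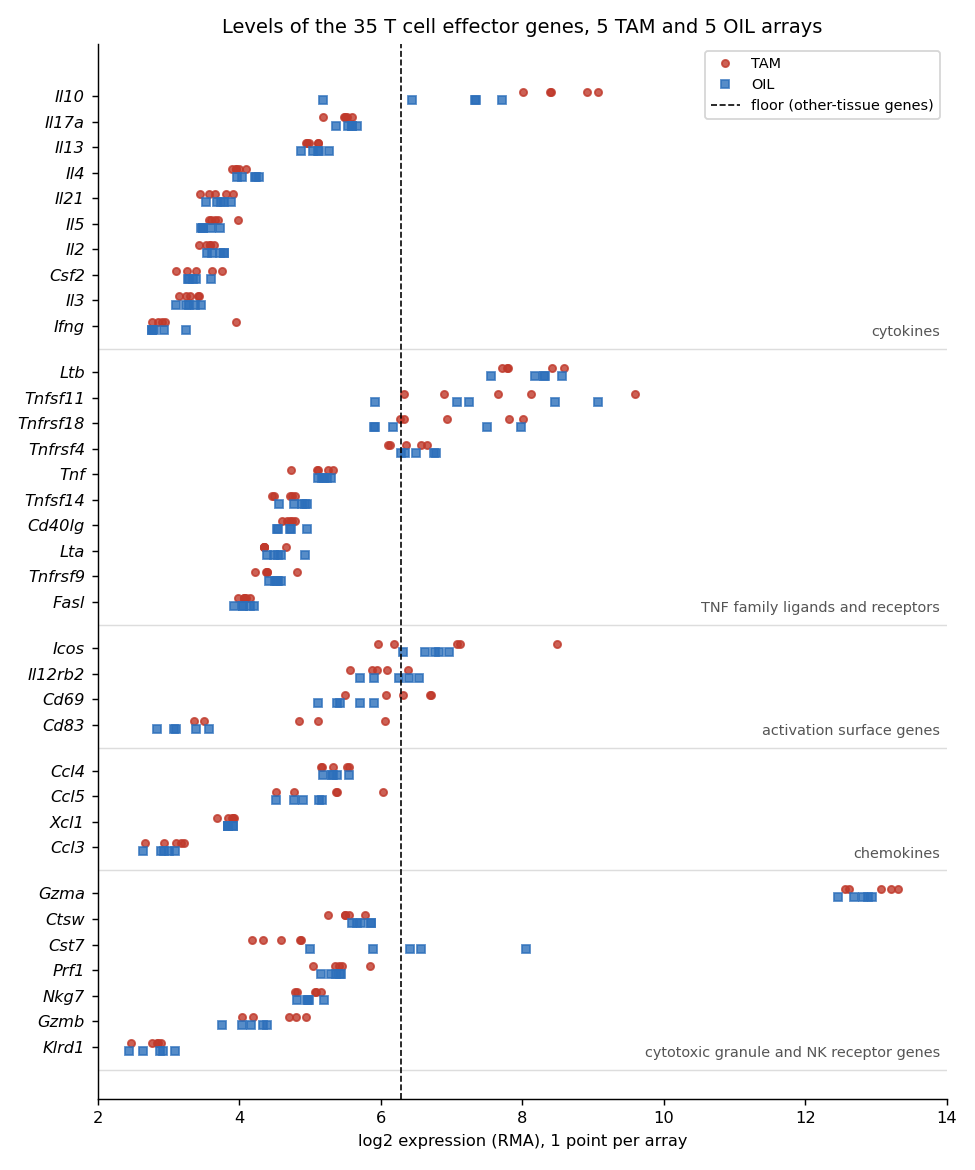
Log2 expression (RMA) of each of the 35 genes on the 5 TAM arrays (red circles) and the 5 OIL arrays (blue squares), grouped by role, with the floor of 6.28 log2 units as a dashed line. Apart from Il10, Cst7, Cd69 and Cd83, the points of the 2 groups largely cover each other, and the points of 9 of the 10 cytokines lie left of the line.

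TAM was set against OIL with limma over the 12735 genes that passed a filter on dim genes, and 20 of the 35 members passed it. Without a block, 0 of the 20 were called at an adjusted p under 0.05, where 0.471% of all tested genes were called (60 genes). At an unadjusted p under 0.05 the members gave 4 of 20, Il10 and Cd69 higher and Cst7 and Ctsw lower in TAM, against a background of 13% of all tested genes. With the array label as a replicate block, 2 of the 20 were called, Il10 higher and Cst7 lower in TAM, against 3.38% of all tested genes (431 genes). Cst7 was among the 20 only because of its level in OIL, since its TAM mean of 4.57 was below the limit of the filter. The pairing behind this block rests on the labels and on arrays of 1 label deviating together, which they did only weakly for F3.2 (correlation 0.184). Neither Il10 nor Cst7 was called when the block was refitted without label F3.1. None of the 15 members below the filter was called in a fit of all 18193 genes with the block, which called 2.39% of those genes. All 5 TAM arrays lay above all 5 OIL arrays for 1 of the 20, Il10 (background 1.27%), and below them for 1, Cst7 (background 1.99%). In all 5 pairs, 3 of the 35 members were higher and 4 lower in TAM, against 1178 and 2204 of all 18193 genes. Over all 35 members, 16 had a higher and 19 a lower mean in TAM, the median difference was -0.0032 log2 units (-0.03 over the tested genes), and 26 differed by under 0.2 log2 units. A difference of that size is not shown to be absent, since the 95% intervals of single genes were often wider.

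**Figure D2:**
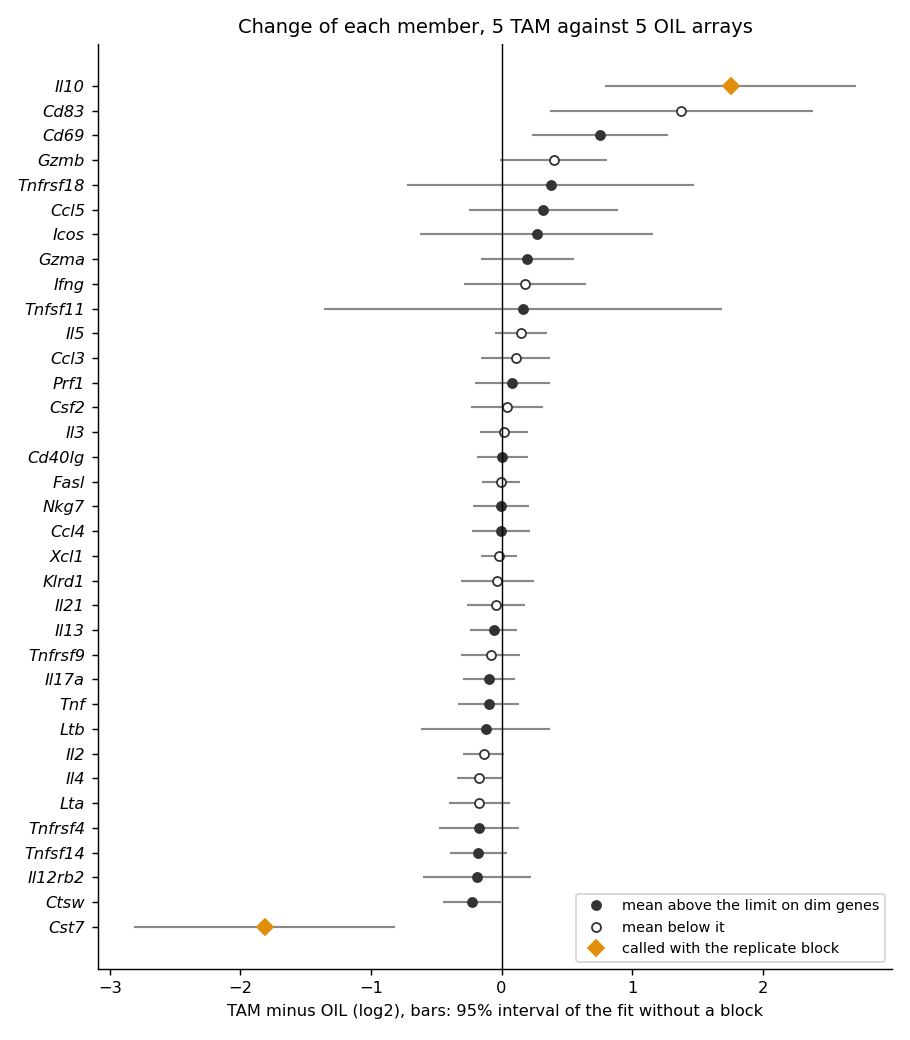
Difference of each of the 35 genes, TAM minus OIL in log2 units, with the 95% interval of the fit without a block as a bar. Filled circles are the members above the limit on dim genes, open circles those below it, and the 2 diamonds, Il10 at 1.75 and Cst7 at -1.82, are those called with the replicate block.

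Among the cytokines, Il10 stood apart. Interleukin-10 restrains inflammatory responses and is made by several kinds of T cell, regulatory cells among them. Its probe set read 8.01, 8.39, 8.91, 9.07 and 8.40 log2 units on the TAM arrays labelled 204, 206, F3.1, F3.2 and F3, against 5.18, 6.43, 7.34, 7.72 and 7.33 on the OIL arrays in the same order. Every TAM array lay above every OIL array, and the OIL array labelled 204 was the lowest of all, below the floor. The mean was 8.56 ± 0.43 in TAM and 6.80 ± 1.02 in OIL (SD, n = 5 each), a difference of 1.75 (SE 0.44), or 3.38-fold. In limma the adjusted p was 0.123 without the block and 0.0132 with it. Leaving out label F3.1 ended the call with the block (limma adjusted p = 0.0570). The difference lay between 1.35 and 1.98 in the 27 alternative settings, and was lowest when OIL 204 was left out. Since the groups did not overlap, leaving arrays out could not reverse its direction, so the constant direction adds no support.

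The other 9 cytokines had means below the floor in both groups. They were Il2, the T cell growth factor; Il3 and Csf2, growth factors of myeloid cells; Il4, Il5 and Il13, cytokines of type 2 helper cells; Il17a and Il21, of type 17 and follicular helper cells; and Ifng, the interferon of type 1 helper and cytotoxic cells. Their single arrays lay between 2.77 and 5.66 log2 units in both groups, and their differences between -0.17 and 0.18. Il2 averaged 3.56 ± 0.08 in TAM and 3.69 ± 0.10 in OIL (SD, n = 5 each). Il4 was lower in TAM in all 5 pairs, at 3.98 ± 0.07 in TAM and 4.15 ± 0.14 in OIL (SD, n = 5 each), and was not called (limma adjusted p = 0.445). Ifng lay at 3.96 on TAM 204 and at 2.95 or less on the other TAM arrays.

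In the TNF family, 4 of 10 members were above the floor and none was called. Ltb encodes lymphotoxin beta, the membrane anchor of the lymphotoxin heterotrimer. It read 7.79, 7.72, 8.59, 7.79 and 8.42 in TAM 204, 206, F3.1, F3.2 and F3, against 8.18, 7.55, 8.32, 8.31 and 8.56 in OIL. The groups overlapped, with a difference of -0.12 (limma adjusted p = 0.865). Tnfrsf4 encodes OX40, a costimulatory receptor. It read 6.11, 6.36, 6.56, 6.65 and 6.14 in TAM, against 6.50, 6.35, 6.78, 6.76 and 6.29 in OIL in the same order of labels, lower in TAM in 4 of 5 pairs and not called (-0.17, limma adjusted p = 0.661).

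Tnfrsf18 and Tnfsf11 varied widely between arrays within each group. Tnfrsf18 encodes GITR, a costimulatory receptor abundant on regulatory and activated T cells. It read 7.81, 8.01, 6.27, 6.93 and 6.33 in TAM 204, 206, F3.1, F3.2 and F3, against 7.98, 7.51, 5.92, 5.91 and 6.17 in OIL. The 6 arrays with F3 labels all lay below the 4 arrays labelled 204 or 206, in both groups. Tnfsf11 encodes RANKL, the ligand that drives osteoclast formation. It read 8.12, 7.65, 9.59, 6.33 and 6.90 in TAM, against 7.07, 7.25, 8.46, 9.07 and 5.91 in OIL in the same order. It was higher in TAM in 4 pairs and lower in the F3.2 pair (-2.74). The difference was 0.17 (limma adjusted p = 0.953 without and 0.885 with the block). With the block and without label F3.2 it was 0.89 (limma adjusted p = 0.0218), and without both F3.1 and F3.2 it was 0.81 and not called (limma adjusted p = 0.0796). Its sign was that of the full data in 21 of 27 alternatives, over a range from -0.30 to 0.89. The dimmer of its 2 probe sets went the same way, with TAM F3.2 lowest in TAM at 3.99 and OIL F3.2 highest in OIL at 6.06.

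The other 6 TNF family members were Tnf and Lta, inflammatory cytokines; Fasl, the death ligand of cytotoxic cells; Cd40lg, the helper signal to B cells; Tnfsf14, the ligand LIGHT; and Tnfrsf9, the costimulatory receptor 4-1BB. Their arrays lay between 3.93 and 5.33 log2 units, with differences between -0.18 and 0.01, and none was called. Tnf averaged 5.10 ± 0.23 in TAM and 5.20 ± 0.07 in OIL (SD, n = 5 each). Lta was lower in TAM in all 5 pairs, at 4.42 ± 0.14 in TAM and 4.59 ± 0.20 in OIL (SD, n = 5 each), and was not called (limma adjusted p = 0.606). The 2 probe sets of Tnfsf14 differed by unequal amounts. The brighter one averaged 4.64 in TAM and 4.82 in OIL, and the dimmer one 4.08 in TAM and 4.72 in OIL, lower in TAM in all 5 pairs.

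**Figure D3:**
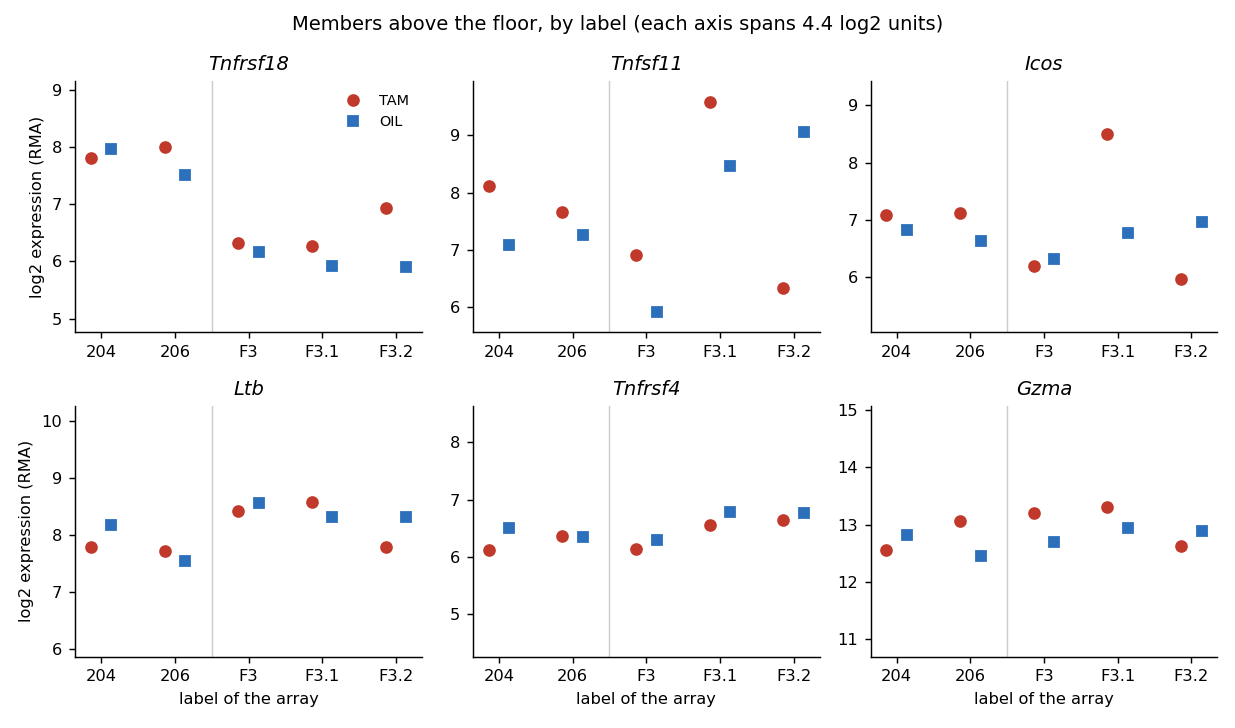
Log2 expression (RMA) of 6 members above the floor, by array label, with TAM arrays as red circles and OIL arrays as blue squares; each axis spans 4.4 log2 units. Tnfrsf18 is higher on the 204 and 206 arrays than on the F3 arrays in both groups, and Tnfsf11 and Icos are high on TAM F3.1 and low on TAM F3.2.

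Of the surface genes of activated cells, Cd69 and Cd83 were higher in TAM in all 5 pairs but were called neither without a block nor with the label as a fixed block. Over all 18193 genes, 1178 were higher in TAM in all 5 pairs. Cd69, an early activation antigen that keeps cells in tissue, read 5.49, 6.70, 6.70, 6.08 and 6.31 in TAM 204, 206, F3.1, F3.2 and F3, against 5.11, 5.38, 5.43, 5.70 and 5.90 in OIL. The groups overlapped through TAM 204. The mean was 6.26 ± 0.51 in TAM and 5.50 ± 0.31 in OIL (SD, n = 5 each), a difference of 0.75 (SE 0.24, limma adjusted p = 0.216 without and 0.0622 with the block). With the label as a random block instead, Cd69 was called (limma adjusted p = 0.0391). Cd83, a marker of activated lymphocytes and dendritic cells, read 6.06, 3.36, 4.85, 5.11 and 3.50 in TAM, against 3.1, 3.07, 3.40, 3.57 and 2.84 in OIL. The TAM arrays 204, F3.1 and F3.2 lay well above all OIL arrays, while 206 and F3 lay among them. The difference was 1.38 (SE 0.46, limma adjusted p = 0.285 without and 0.0789 with the block). Its mean was below the dim limit and below the floor in both groups. Values of Cd69 and Cd83 on every array were given after they had been seen.

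Icos encodes an inducible costimulatory receptor. It read 7.07, 7.11, 8.50, 5.96 and 6.19 in TAM 204, 206, F3.1, F3.2 and F3, against 6.82, 6.63, 6.77, 6.96 and 6.31 in OIL. The TAM arrays spread on both sides of the OIL arrays, which lay close together, and the difference was 0.27 (limma adjusted p = 0.830). All 3 of its probe sets had their highest value on TAM F3.1. Il12rb2, the signalling chain of the interleukin-12 receptor, was lower in TAM in all 5 pairs by small amounts, at 5.97 ± 0.30 in TAM and 6.16 ± 0.35 in OIL (SD, n = 5 each, limma adjusted p = 0.729 without and 0.187 with the block).

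**Figure D4:**
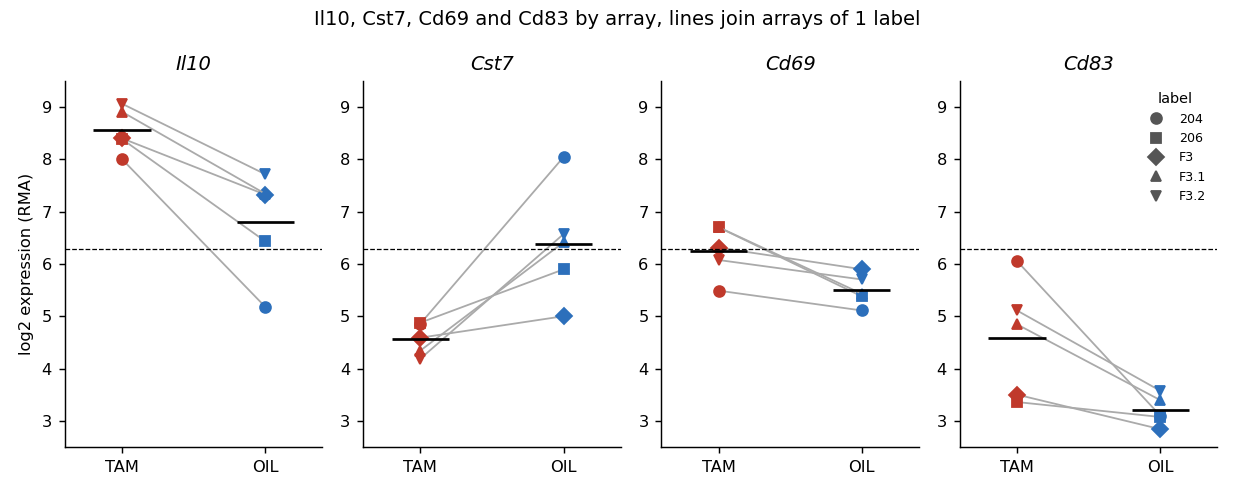
Log2 expression (RMA) of Il10, Cst7, Cd69 and Cd83, with TAM left and OIL right; lines join arrays of the same label, black bars are group means and the dashed line is the floor. Every line runs the same way within each panel, and only for Il10 and Cst7 do the groups not overlap.

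The 4 chemokines, Xcl1, Ccl3, Ccl4 and Ccl5, which attract dendritic cells, T cells and other leukocytes, were below the floor in both groups. Their arrays lay between 2.65 and 6.03 log2 units and their differences between -0.02 and 0.32. Ccl5 averaged 5.22 ± 0.59 in TAM and 4.90 ± 0.27 in OIL (SD, n = 5 each), higher in TAM in 3 of 5 pairs and not called (limma adjusted p = 0.661).

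Among the cytotoxic genes, Gzma was above the floor in both groups, and Cst7 was above it in OIL and below it in TAM. Gzma encodes granzyme A, a granule protease. It read 12.56, 13.07, 13.31, 12.62 and 13.21 log2 units in TAM 204, 206, F3.1, F3.2 and F3, against 12.82, 12.45, 12.94, 12.88 and 12.69 in OIL. Its probe set was far above the floor on all 10 arrays, and the groups overlapped. The difference was 0.20, with a 95% interval from -0.16 to 0.56 (limma adjusted p = 0.668).

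Cst7 encodes cystatin F, an inhibitor of lysosomal cathepsins in cytotoxic and myeloid cells. It read 4.86, 4.88, 4.34, 4.19 and 4.59 in TAM 204, 206, F3.1, F3.2 and F3, against 8.05, 5.90, 6.41, 6.57 and 5.0 in OIL. Every TAM array lay below every OIL array, though OIL F3 exceeded the highest TAM array by little. The mean was 4.57 ± 0.31 in TAM and 6.39 ± 1.11 in OIL (SD, n = 5 each), a difference of -1.82 (SE 0.45). The TAM mean lay below both the floor and the limit on dim genes, so no fold is given, and Cst7 passed the filter on dim genes only through OIL. In limma the adjusted p was 0.125 without the block and 0.0463 with it. The call with the block was lost without label 204 (limma adjusted p = 0.0968), 206 (0.0698), F3.1 (0.156) or F3.2 (0.0877) and kept without F3 (0.0389). The differences lay between -2.17 and -1.40 in the 27 alternative settings. Since the groups did not overlap, leaving arrays out could not reverse the direction, so the constant direction adds no support. The summed linear level of 7 mast cell and basophil markers was highest on OIL 204, at 336, where Cst7 was also highest, and next highest on OIL F3, at 287, where Cst7 was lowest among OIL arrays. Over groups this sum ran from 150 to 200 in TAM and from 162 to 336 in OIL. None of the 7 markers had a mean above the floor, though the highest single array value was 7.77. The summed myeloid markers were lowest among OIL arrays on 204, at 595, and highest among them on F3, at 1798. The part of either sum in the Cst7 difference was not tested.

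The other 5 cytotoxic genes were below the floor. Prf1 encodes the pore-forming protein perforin, Gzmb the protease granzyme B, Nkg7 a granule membrane protein, Ctsw cathepsin W and Klrd1 the CD94 subunit of NK receptors. Prf1 averaged 5.42 ± 0.28 in TAM and 5.34 ± 0.11 in OIL (SD, n = 5 each). Gzmb averaged 4.54 ± 0.39 in TAM and 4.14 ± 0.25 in OIL (SD, n = 5 each), higher in TAM in 4 of 5 pairs and not called (limma adjusted p = 0.472). Ctsw averaged 5.52 ± 0.19 in TAM and 5.74 ± 0.12 in OIL (SD, n = 5 each), lower in TAM in 4 of 5 pairs and not called (limma adjusted p = 0.370). Nkg7 differed by -0.0032 log2 units and Klrd1 by -0.03. Gzma was thus the only cytotoxic member above the floor in TAM.

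The members were also compared between 3 label families, 204, 206 and F3 (the labels F3, F3.1 and F3.2), by a limma F test with treatment in the model. Families 204 and 206 held 1 TAM and 1 OIL array each, so its p-values measure spread between arrays and not between leukemias. Of the 20 tested members 2 were called, Tnfrsf18 and Il10, where 8.39% of all tested genes were called. Tnfrsf18 was lower by 1.57 log2 units with F3 labels than with 204 and 206 (limma adjusted p = 0.0011 over the 3 families), and the 2 sets of arrays did not overlap. Its mean with F3 labels (6.26) was below the floor. Il10 was higher by 1.13 with F3 labels than with 204 and 206, with overlapping arrays (limma adjusted p = 0.0283 over the 3 families). The members called numbered 1 when TAM 206, OIL 204, OIL 206, OIL F3.1 or OIL F3 was left out. Whether the difference between TAM and OIL itself differed between families was tested by an interaction term. It called 0 of the 12735 genes (0%) after adjustment, and 346 (2.72%) at an unadjusted p under 0.05, among them 1 of the 20 tested members, Ccl5 (limma unadjusted p = 0.0391). For Il10 the difference between TAM and OIL was 1.33 with F3 labels and 2.39 with 204 and 206, and the interaction had an adjusted p of 0.998 in limma.

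Gene lists around the 35 members described the setting in which they were measured. Of 21 tested receptors of the members' products, 0 were called without or with the block, where 0.471% and 3.38% of all tested genes were called. Il2ra, the alpha chain of the interleukin-2 receptor, was above the floor at 10.81 ± 0.28 in TAM and 10.69 ± 0.54 in OIL (SD, n = 5 each), while Il2 itself was below it. Of 18 tested genes of granule biogenesis and release, 0 were called in either fit. Srgn, the proteoglycan core of granules, averaged 12.44 in TAM and 12.29 in OIL, and the granzyme-activating protease Ctsc averaged 10.13 in TAM and 10.16 in OIL.

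Of 19 tested effector transcription factors 1 rose, Irf4, a factor induced by T cell receptor signals, at 9.10 ± 0.30 in TAM and 8.18 ± 0.28 in OIL (SD, n = 5 each, difference 0.92, limma adjusted p = 0.0488). Of 17 tested calcineurin and NFAT genes 1 rose, Nfatc2, at 8.14 ± 0.22 in TAM and 7.43 ± 0.15 in OIL (SD, n = 5 each, difference 0.71, limma adjusted p = 0.0324) on its brightest probe set. Its other 5 probe sets differed by -0.13 to 0.11, and the other probe set of Irf4 by 0.36. Of 14 tested NF-kB genes 1 rose, Relb, a subunit of the alternative pathway that TNF receptors engage, at 5.76 ± 0.14 in TAM and 5.05 ± 0.16 in OIL (SD, n = 5 each, difference 0.71, limma adjusted p = 0.0159). Traf1, an adaptor of TNF receptors below the dim limit, was called with the block only, at 5.01 ± 0.56 in TAM and 3.92 ± 0.24 in OIL (SD, n = 5 each, difference 1.09, limma adjusted p = 0.105 without and 0.0104 with it). The means of Relb and of Traf1 were below the floor in both groups. All 5 TAM arrays lay above all 5 OIL arrays for Irf4, Nfatc2, Relb and Traf1, and for 175 of all 18193 genes. These 4 were named because the same values called them, so the separation adds no support. Of all tested genes, 0.471% were called without the block and 3.38% with it. Over the 15 measured NF-kB genes, 13 had a higher mean in TAM, against 6828 of 18193 over all genes. That list was chosen with earlier results of these data known, so the count is no independent support. These calls outside the 35 members were not recomputed under the alternatives.

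Checks on the samples touched every comparison. The 14 measured T lineage markers all had means above the floor in both groups, and their summed linear level ran from 33658 to 38789 in TAM and from 33362 to 38763 in OIL. Cd2, 1 of them, was lower in TAM (-1.0, limma adjusted p = 0.0588 without and 0.0271 with the block). None of 10 measured NK cell markers was above the floor, and their summed level ran from 229 to 314 in TAM and from 245 to 273 in OIL. Myeloid markers summed to between 722 and 3085 in TAM and between 595 and 1798 in OIL. Stroma markers summed to 1395 on TAM 206 and 798 on OIL 206, against 170 to 267 on the other arrays. The part of either sum in the members' values was not tested. In bulk samples such as these, fewer cells of a type and less RNA per cell cannot be told apart. For Ppp3r1, the brighter probe set averaged 9.67 ± 0.04 in TAM and 9.80 ± 0.09 in OIL (SD, n = 5 each, two-sided exact permutation p = 0.0238). The dimmer one averaged 3.26 ± 0.21 in TAM and 5.32 ± 0.58 in OIL (SD, n = 5 each), both below the floor, with the smallest exact permutation p that 5 against 5 arrays allow (0.00794). Where these probe sets lie relative to the deleted part is not known from the labels.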

How the data were processed

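RNA of sorted leukemic cells was hybridised to 10 arrays, 5 in each group. The log2 values deposited by the authors come from RMA, per the submitters' processing notes, in a version that those notes do not state. RMA corrects background and normalizes arrays by quantiles, which removes shifts common to all genes. The number of arrays limits the precision. The array medians lay between 5.07 and 5.13.

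Of 45101 probe sets, 34958 had 1 gene symbol, 932 several and 9211 none in the platform annotation; 34754 were matched by Entrez ID to RefSeq (GRCm38.p6). The 18193 genes each took the probe set with the highest mean. After the lowest 30% (under 4.59 log2 units) were set aside, 12735 were tested. Genes below that limit take their p from a fit of all 18193 genes.

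For TAM against OIL, lmFit and eBayes of limma 3.58.1 were used (R 4.3.3, data.table version 1.17.8), with Benjamini-Hochberg adjustment over all genes fitted and calls at 0.05. No block was used, with 8 residual degrees of freedom left. The alternative with the array label as a replicate block had 4. Deviations from the group means correlated between arrays of 1 label at 0.763 (204), 0.745 (206), 0.585 (F3.1), 0.184 (F3.2) and 0.804 (F3), all above the limit of 0.1, so blocked values are given where they change a call. The pairing thus rests on the labels and these correlations, and the own label was the best match for 3 of 5 TAM and 4 of 5 OIL arrays. The most alike pair of arrays was OIL F3.1 with OIL F3.2 (r = 0.9969), and their values were not identical. Alternatives varied the filter, centring, probe set choice, eBayes settings, array weights, the block and the arrays used.

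The members and all gene lists were chosen with earlier results of these data known. All 35 members are accounted for. Members above the floor or called in any fit have every array's value, Cd69 and Cd83 were added after their values were seen, and other members have ranges. Beyond the members, Ppp3r1 and called genes of the lists are named, and a few uncalled ones (Il2ra, Srgn, Ctsc) were chosen after their values were seen. The figures were drawn with matplotlib 3.10.9.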

Additional observations from a re-analysis of the deposited data

Results flagged for a closer look

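In the 35 members, 70 groups of 5 arrays were searched for an array far from the rest, and 3 were found, where chance gives about 1 in 20. For Il17a, TAM 204 read 5.18 log2 units and the other TAM arrays 5.49 to 5.59. For Ifng, TAM 204 read 3.96 and the other TAM arrays 2.77 to 2.95. For Lta, TAM F3.1 read 4.66 and the other TAM arrays 4.35 to 4.36. All 3 genes were below the floor in both groups.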

How the results depend on the processing

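The 35 members kept their direction in 878 of 945 recomputed differences (27 alternatives each), 21 members in every alternative run. Several alternatives leave a difference unchanged by design and the others share most arrays, so this count is no independent support. Tnfsf11, called only with the replicate block and without F3.2 (0.89), was lower in TAM in some of the others, down to -0.30. Without a block, limma called 60 genes over the whole table. It called 26 with the mean of all probe sets, 25 with the probe set of highest variance, 242 with array weights, 431 with the replicate block, 728 with the label as a random block, 227 with the label family as a fixed term, and 10 with OIL F3.1 and OIL F3.2 averaged. Leaving out 1 array gave 8 (without OIL F3.1) to 54 genes, with 36 when TAM 204, 28 when TAM 206, 24 when TAM F3.1, 19 when OIL 204 and 10 when OIL F3.2 was left out. Leaving out 1 label with the replicate block, added after seeing the data, gave 85 without F3.1, 153 without 204 or F3, 188 without 206 and 434 without F3.2. Calls among the members were 0 without a block, 1 with array weights (Cst7), 2 with the replicate block (Il10 and Cst7), 3 with the random block (Il10, Cst7 and Cd69), 2 with the label family term, and 0 to 2 with the block and 1 label left out. Calls between label families were 2, with 4 under array weights and 1 to 2 with an array left out. Members above the floor were 8, with 20 at the dim limit and 1 at the highest other-tissue gene. For Ppp3r1 the difference was -0.12 (limma adjusted p = 0.438), with an exact permutation p of 0.0238, and -2.06 on the other probe set (limma adjusted p = 0.0103). The causes of these shifts were not tested. Without a replicate block, limma's adjusted p for Il10 ran from 0.0137, with the label family as a fixed term, to 0.251. With no label term of any kind its lowest adjusted p in limma was 0.0861, under array weights. For Cst7, limma's adjusted p without a replicate block ran from 0.0373, under array weights, to 0.285. With the block and without the pairs F3.1 and F3.2, the adjusted p was 0.0669 for Il10 and 0.240 for Cst7. The replicate block changed no other member's call. Signal over background limits the 27 members below the floor, for which RMA values show neither presence nor absence.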
